A study of Mus musculus with 16 samples.

Results

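Expression in mouse embryonic stem cells (ESCs) that carried a Prdm4-EGFP transgene was compared with that in Prdm4 null ESCs on 10 of the 16 arrays of the study, 6 from Prdm4-EGFP cells and 4 from null cells. No wild-type array entered the comparison. All ESCs were of strain 129/Sv and were cultured pluripotent cells. In the null cells (genotype Prdm4∆ZF/∆ZF) gene targeting had removed several exons from both alleles, and a shortened transcript was still made. These exons encode most of the zinc fingers, a pseudo zinc finger and part of the PR domain described below. The Prdm4-EGFP cells had been stably transfected with full-length Prdm4 fused to enhanced green fluorescent protein, under the ubiquitous CAGGS promoter and with puromycin selection. The array labels do not name the parental line of the transfected cells, and the study transfected both wild-type CCE cells and null cells. A figure legend and the differentiation assay of the study place full-length Prdm4-EGFP in wild-type ESCs, while another passage places it in null ESCs. Its array section names no parent but reports relatively few differences between wild-type and Prdm4-EGFP cells. The groups therefore differ in the transgene, in the history of the lines and, if the parent was wild type, in the endogenous alleles, and these cannot be told apart in this comparison. The methods call the arrays of a group biological replicates and the deposited design calls them clones. Whether the clones of 1 group were derived independently is not stated, so every p-value here measures the spread between these arrays. Of 45281 probes, the test took in the 14912 that reached a detection p-value below 0.01 in 4 or more of the 10 hybridisations. The detection p-value sets a probe against the negative control beads of its array. These probes included 12901 with a single gene symbol, for 8514 genes, each represented by its brightest probe.

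Prdm4 belongs to the PRDM family of transcription regulators, which pair a PR domain with zinc fingers that bind DNA. Its relatives Prdm1 and Prdm14 direct cell fate in the early embryo and germ line, and Prdm14 keeps mouse ESCs in the naive state. Naive ESCs resemble the epiblast before implantation and are held there by leukemia inhibitory factor (LIF), whereas FGF and Nodal signalling accompany the move to the primed epiblast, from which the germ layers form. In bulk RNA, fewer cells of a kind and less RNA per cell cannot be told apart.

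Both Prdm4 probes read higher in the Prdm4-EGFP cells. Levels are given as normalized log2 signal. The dimmer probe stood at 4.76, 4.69, 4.64 and 4.74 on the 4 null arrays and was detected on none of them (lowest detection p-value 0.172), while the 6 Prdm4-EGFP arrays ran from 7.05 through a median of 7.27 to 7.45. This probe was at least 3.20-fold higher in Prdm4-EGFP cells (limma adjusted p = 2.0e-10). For such a bound the undetected group is given, array by array, the dimmest signal that still counted as detected. An adjusted p printed beside a bound, here and below, is that of the fitted limma difference, which uses signals below background. It does not test the bound. A probe detected on no array of 1 group, here and below, passed the detection filter through the other group alone. That it passed is therefore no support for the difference. The brighter probe stood at 9.76, 9.60, 9.72 and 9.73 in null and from 10.11 through 10.30 to 10.38 in Prdm4-EGFP, a difference of 0.59 (SE 0.07, adjusted p = 1.2e-05). The groups did not overlap on either probe. An exact two-sided permutation test over the 210 ways to choose 4 of 10 arrays gave p = 0.0048 for each, the smallest this design can give. Where the probes lie on the transcript is not known here, so neither can be assigned to the transgene or to the endogenous alleles.

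On each array 13894 to 14905 probes were detected (30.7 to 32.9%), and arrays of a group correlated at r = 0.9897 to 0.9954 over the tested probes. The first principal component held 71.8% of the variance and placed the null arrays at -36.0 to -30.1 and the Prdm4-EGFP arrays at 20.6 to 24.6. All 9 ES cell markers, Pou5f1, Nanog and Sox2 among them, were detected on every array. Of 14 markers of feeder fibroblasts 11 were detected on none, the fibrillar collagen genes Col1a1, Col1a2 and Col3a1 included. Their summed signal was 641.8 to 685.2 in null and 948.6 to 1146 in Prdm4-EGFP, and of the 3 tested markers Thy1 rose by 1.77 (SE 0.10), Col5a1 differed by -0.26 (SE 0.07, adjusted p = 0.010) and Loxl1 by -0.14 (SE 0.07, adjusted p = 0.14).

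About as many genes were higher as lower. A gene is called, and said to be higher or lower in Prdm4-EGFP, where its limma p-value adjusted by the Benjamini-Hochberg method was under 0.05. Of the 14912 probes 7490 were called (50.2%), 3668 higher (24.6%) and 3822 lower (25.6%). Of the 8514 genes 4487 were called (52.7%), 2152 higher (25.3%) and 2335 lower (27.4%), and these shares are the background against which each group of genes below is to be read. In the normalized values deposited by the authors 7402 probes were called, and 60.4% of these were higher, against 49.0% here. The median difference over all genes was -0.01 (quartiles -0.23 and 0.21), the median called gene differed by 1.33-fold, and 232 called genes were at least 2-fold higher and 230 at least 2-fold lower in fitted level. The arrays of the groups did not overlap for 3489 genes (41.0%).

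**Figure D1:**
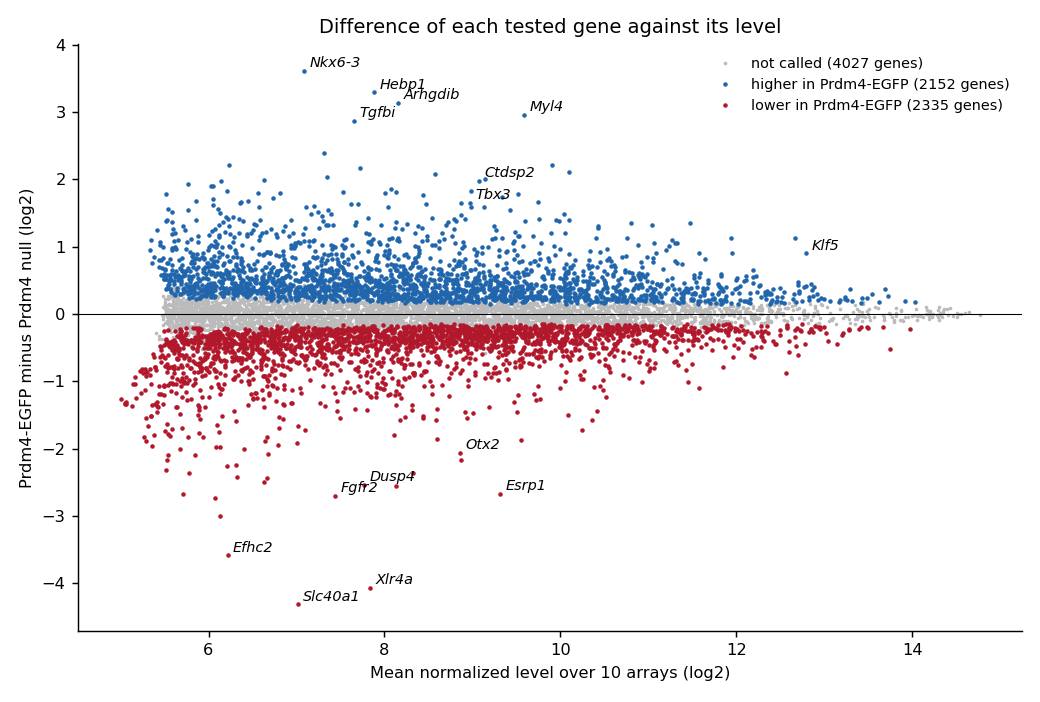
Difference between Prdm4-EGFP and Prdm4 null (log2, vertical axis) of each of 8514 tested genes against its mean normalized level over the 10 arrays (log2, horizontal axis). Blue points are the 2152 genes called higher in Prdm4-EGFP, red points the 2335 called lower and gray points those not called, and the named genes lie at the edges of the cloud at all but the brightest levels.

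Of 20 listed genes of the naive state 17 were tested, of which 8 were higher, 2 lower and 7 not called (median difference 0.19, against -0.01 over all genes). Tbx3, a T-box factor of the naive network, was at 8.11, 8.04, 7.50 and 8.29 in null and at 9.35 to 9.85 (median 9.64) in Prdm4-EGFP, a difference of 1.65 (SE 0.14, adjusted p = 5.7e-07). Tfcp2l1, which sustains self-renewal downstream of LIF, was at 10.67, 10.66, 10.57 and 10.72 in null and at 11.84 to 12.16 (median 12.03) in Prdm4-EGFP, a difference of 1.35 (SE 0.07, adjusted p = 1.3e-08). For both genes every Prdm4-EGFP array lay above every null array. Prdm14 stood at 6.58, 6.63, 6.91 and 6.98 in null and at 7.65 to 7.91 (median 7.83) in Prdm4-EGFP, higher by 1.03 (SE 0.09).

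Klf5, a Krüppel-like factor of the naive network, was at 12.32, 12.15, 12.26 and 12.28 in null and at 13.06 to 13.29 (median 13.13) in Prdm4-EGFP, a difference of 0.90 (SE 0.07, adjusted p = 3.3e-07). Nanog, a homeobox factor of the core and naive networks, was at 10.68, 10.98, 11.04 and 11.08 in null and at 11.59 to 11.82 (median 11.67) in Prdm4-EGFP, a difference of 0.73 (SE 0.08, adjusted p = 1.1e-05). The groups were apart for both, with null array 1 lowest for Nanog. Klf4 rose by 0.45 (SE 0.08), although 1 of its 3 tested probes was not called, the nuclear receptor gene Esrrb by 0.44 (SE 0.06) and the homeobox gene Gbx2 by 0.55 (SE 0.07). The genes that fell were Fbxo15, which encodes an F-box protein of ESCs (-0.74, SE 0.11), and the E-cadherin gene Cdh1 (-0.38, SE 0.09). Tfcp2l1, Prdm14, Gbx2 and Nr5a2 lie on chromosome 1 and Klf5 on chromosome 14, parts of which were shifted in these cells as given below. Without the genes of these chromosomes 4 of 12 were higher and 2 lower, with a median difference of 0.07, where 22.5% of all genes off these chromosomes were higher and 28.5% lower. The part of these shifts in the list was not tested.

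Most tested genes of the primed epiblast were lower. Of 21 listed genes 20 were on the array and 11 were tested, of which 8 were lower and 1 higher, with a median of -1.23, or -0.69 with the genes below background set at their bound. Otx2, a homeobox factor that starts the exit from the naive state, was at 10.10, 10.15, 10.19 and 9.97 in null and at 7.68 to 8.63 (median 7.90) in Prdm4-EGFP, a difference of -2.06 (SE 0.17, adjusted p = 6.9e-07). Pou3f1, a POU factor that accompanies it, was at 9.16, 9.16, 9.23 and 9.18 in null and at 7.02 to 7.70 (median 7.46) in Prdm4-EGFP, a difference of -1.80 (SE 0.12, adjusted p = 7.2e-08). The tight junction gene Cldn6 was at 10.65, 10.57, 10.76 and 10.74 in null and at 8.57 to 9.11 (median 8.82) in Prdm4-EGFP, a difference of -1.87 (SE 0.10, adjusted p = 1.8e-08). None of the 3 overlapped between groups, and the Prdm4-EGFP arrays spread more widely than the null arrays, with SDs of 0.40, 0.26 and 0.20 against 0.09, 0.03 and 0.09.

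Fgf5, a growth factor that marks the primed epiblast, and Pim2, a survival kinase, were detected on all 4 null arrays and on no Prdm4-EGFP array. Fgf5 was at least 1.23-fold lower and Pim2 at least 2.18-fold lower (adjusted p of the fitted differences 9.4e-08 and 3.7e-07). Nodal, a ligand of the epiblast, stood at 10.96, 11.09, 11.33 and 11.11 in null and at 10.35 to 10.60 (median 10.41) in Prdm4-EGFP, a difference of -0.69 (SE 0.08, adjusted p = 1.1e-05). Sall2 fell by 1.23 on the log2 scale (SE 0.15) and the de novo methyltransferase gene Dnmt3b by 0.56 (SE 0.08). The neural factor Sox11 was 0.24 higher (SE 0.08, adjusted p = 0.018) with its brighter probe, but its other probe was called lower (-0.33), so its direction is not settled. Sox4 and Car14 were not called (-0.03, SE 0.09, and 0.05, SE 0.14). Otx2 and Sall2 lie on chromosome 14, and without them 6 of 9 were lower and 1 higher.

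**Figure D2:**
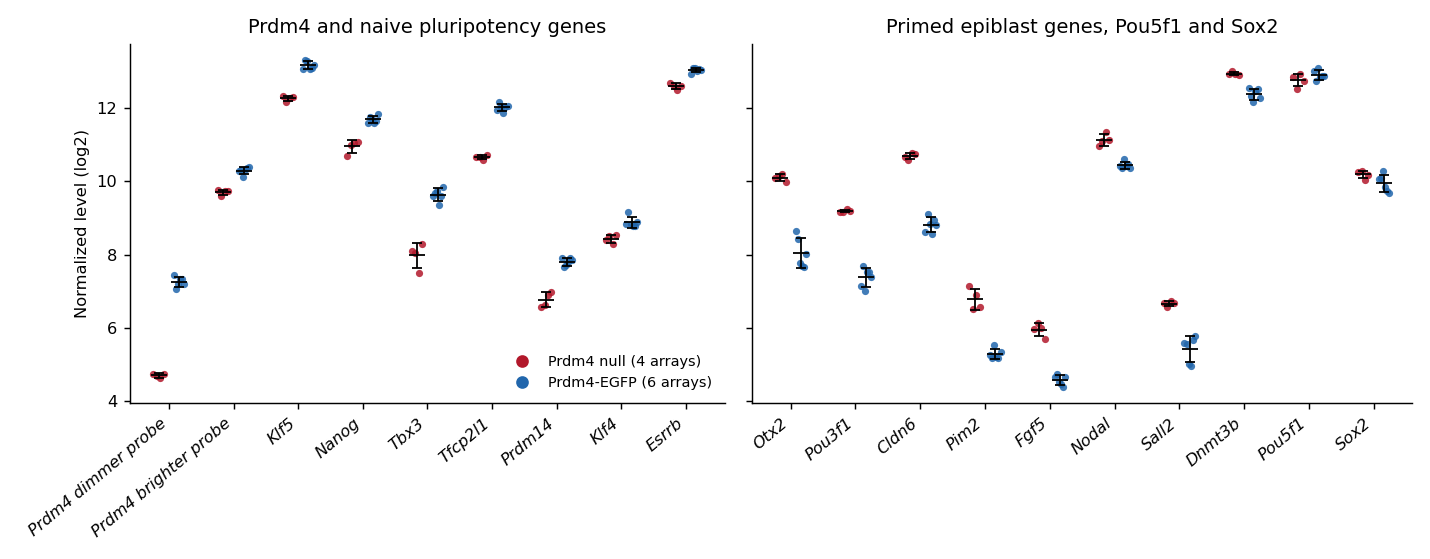
Normalized level (log2, vertical axis) of both Prdm4 probes, 7 naive genes, 8 primed epiblast genes, Pou5f1 and Sox2 on each array, with 4 Prdm4 null arrays in red and 6 Prdm4-EGFP arrays in blue. Black marks are the group mean and SD. The naive and primed genes shown were picked from members called higher and lower, and members not called are left out. The groups are apart for the Prdm4 probes and these picked genes, and overlap for Pou5f1 and Sox2. Over the whole lists they were apart for 10 of 17 tested naive genes and 9 of 11 primed genes, against 41.0% of all genes.

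Of 17 listed genes of the shared core of the pluripotency network 15 were tested, of which 7 were lower and 1, Nanog, higher (median -0.20). Pou5f1, which encodes Oct4, was at 12.84, 12.52, 12.92 and 12.73 in null and at 12.72 to 13.07 (median 12.87) in Prdm4-EGFP, a difference of 0.14 (SE 0.09, adjusted p = 0.21). It was called higher in the deposited normalized values and with median scaling. Sox2, its partner on DNA, was at 10.24, 10.28, 10.04 and 10.16 in null and at 9.67 to 10.28 (median 9.95) in Prdm4-EGFP, a difference of -0.24 (SE 0.11, adjusted p = 0.092). The groups overlapped for both, and Sox2 was called lower (-0.31) when Prdm4-EGFP array 3, its highest, was left out. Gdf3, a TGF-beta family ligand of pluripotent cells, fell by 0.57 (SE 0.07), the SAP domain gene Dppa2 by 0.49 (SE 0.10) and its relative Dppa4 by 0.27 (SE 0.06). The other probes of Dppa4 were not called, and it was not called in the deposited values. Zfp42, Dppa5a and L1td1 differed by -0.08 (SE 0.07), 0.01 (SE 0.05) and -0.04 (SE 0.08), none of them called. In the deposited values 2 genes of this list were called higher and 3 lower.

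Among the signalling pathways, FGF and Erk genes were most often lower. Of 27 listed genes 15 were tested, of which 9 were lower and 4 higher (median -0.52, or -0.30 with 1 gene at its bound). Fgfr2, a receptor for FGF, was at 9.00, 9.15, 9.06 and 9.03 in null and at 6.02 to 6.62 (median 6.40) in Prdm4-EGFP, a difference of -2.70 (SE 0.10, adjusted p = 7.3e-10). Dusp4, a phosphatase that Erk induces and that inactivates Erk, was at 9.44, 9.42, 9.22 and 9.07 in null and at 6.62 to 7.15 (median 6.66) in Prdm4-EGFP, a difference of -2.54 (SE 0.11, adjusted p = 3.5e-09). Among the Prdm4-EGFP arrays, array 1 was highest for Dusp4. Phlda1 fell by 1.12 on the log2 scale (SE 0.08), and the immediate early gene Egr1 by 0.83 (SE 0.10) and the phosphatase gene Dusp5 by 0.66 (SE 0.07). Against this direction Etv4, an Ets factor induced by FGF, rose by 1.39 (SE 0.10), while its relative Etv5 fell by 0.59 (SE 0.08). Fgf13, an intracellular member of the FGF family, was detected on no Prdm4-EGFP array and was at least 2.18-fold lower (adjusted p = 1.6e-07).

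Nodal and Activin genes were more often lower than higher, with 7 lower and 2 higher of 16 tested (median -0.16). Beside Nodal and Gdf3, Foxh1, the DNA-binding partner of the Smad proteins of this pathway, fell by 0.83 (SE 0.10) and the proprotein convertase gene Furin by 0.67 (SE 0.08), while the receptor gene Acvr1b rose by 0.69 (SE 0.07). The feedback inhibitor gene Lefty1 was at 11.24, 11.35, 11.28 and 11.17 in null and at 9.60 to 10.92 (median 9.83) in Prdm4-EGFP, a difference of -1.23 (SE 0.21, adjusted p = 0.00032). It lies on chromosome 1, as does Lefty2 (-1.10, SE 0.26), where most called genes were higher.

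BMP genes were called in both directions, with 5 higher and 3 lower of 13 tested (median 0.10). The ligand gene Bmp4, located on chromosome 14, was at 10.73, 10.54, 10.58 and 10.34 in null and at 11.06 to 11.70 (median 11.47) in Prdm4-EGFP, a difference of 0.90 (SE 0.11, adjusted p = 2.3e-05). Its groups did not overlap. The receptor gene Bmpr2, on chromosome 1, rose by 0.82 (SE 0.08), the antagonist gene Chrd by 0.84 (SE 0.08) and the antiproliferative gene Tob1 by 0.97 (SE 0.09), and the homeobox gene Msx1, detected on no Prdm4-EGFP array, was at least 1.21-fold lower.

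LIF and Stat3 genes were higher 8 times and lower 4 times among 17 tested (median 0.19). The small GTPase gene Mras was at 8.52, 8.50, 8.32 and 8.95 in null and at 10.64 to 10.87 (median 10.83) in Prdm4-EGFP, a difference of 2.21 (SE 0.10, adjusted p = 6.6e-09). Null array 4 was the highest null array. Jak1, the kinase below the LIF receptor, fell by 0.95 (SE 0.08) and the receptor gene Lifr by 0.61 (SE 0.09). Stat3 itself was not called (0.19, SE 0.09, adjusted p = 0.090).

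Wnt genes were called evenly, 4 higher and 4 lower of 13 tested (median -0.06). The receptor gene Fzd5, on chromosome 1, rose by 1.05 (SE 0.06), as did the cyclin gene Ccnd1 (1.05, SE 0.06), and the ligand gene Wnt3a, detected on no null array, was at least 1.84-fold higher. The repressor gene Tcf7l1 fell by 0.40 (SE 0.08) and the scaffold gene Axin1 by 0.30 (SE 0.07). Of 6 tested Hedgehog genes the activator gene Gli2, on chromosome 1, rose by 1.31 (SE 0.08) and Smo by 0.36 (SE 0.09), although the other probe of Smo was not called (0.22). Gli3, mostly a repressor in this pathway, was at 8.08, 7.88, 7.94 and 7.83 in null and at 6.90 to 7.22 (median 7.02) in Prdm4-EGFP, a difference of -0.89 (SE 0.08, adjusted p = 1.9e-06), and the groups did not overlap. The receptor gene Ptch1 fell by 0.76 (SE 0.15). Cdon, a co-receptor, was lower by a small margin (-0.24, SE 0.08, adjusted p = 0.024) and was no longer called when null array 1, 2 or 3 was left out (-0.24 to -0.20).

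**Figure D3:**
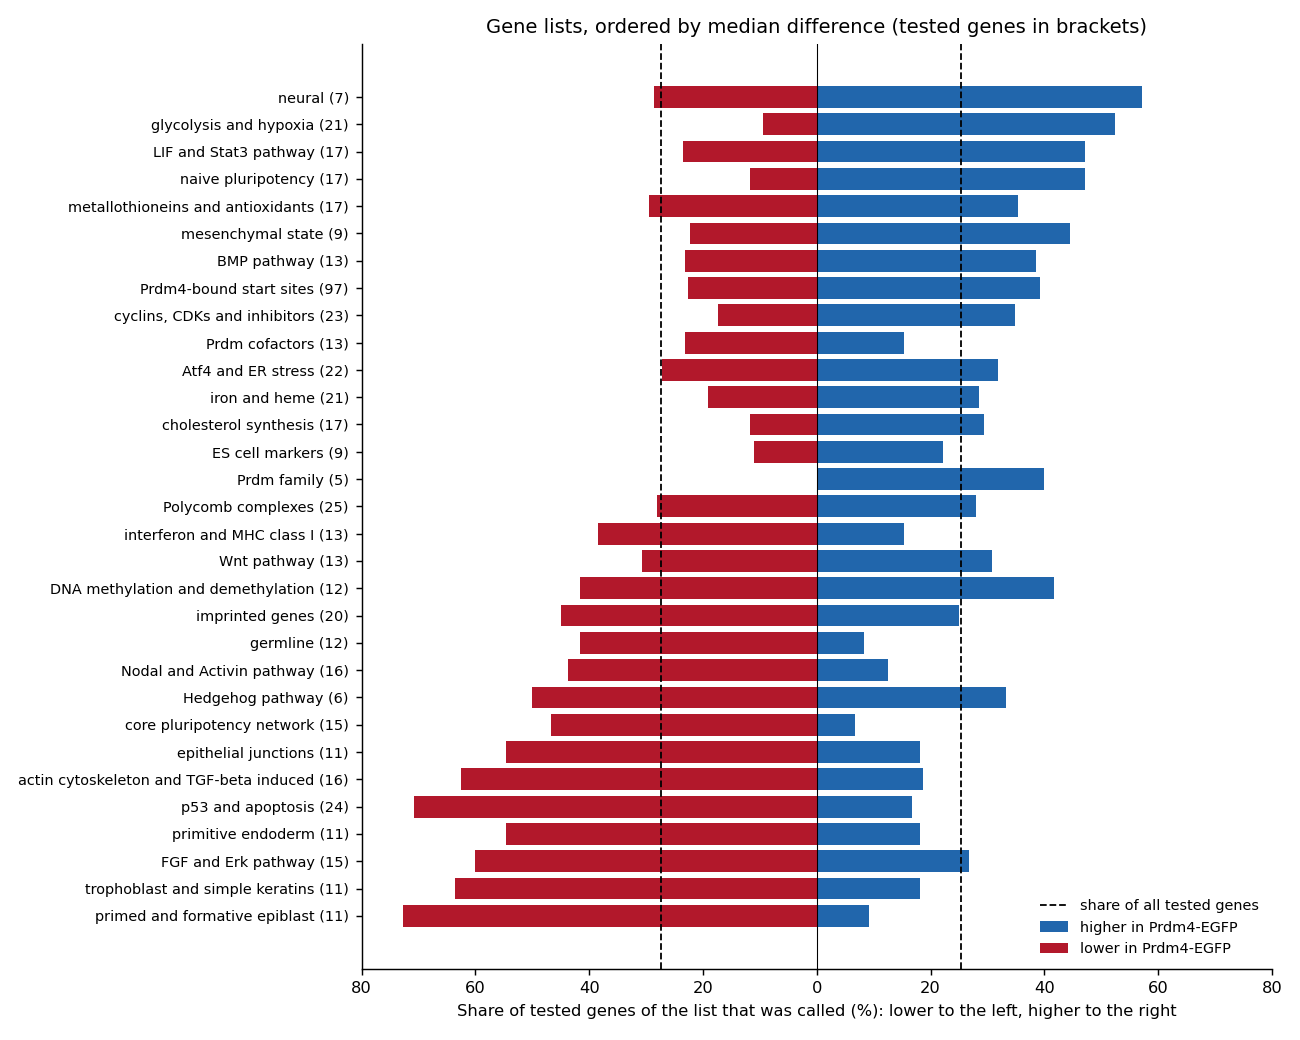
Share of the tested genes of each list that was called higher (blue, to the right) or lower (red, to the left) in Prdm4-EGFP, in percent, for the lists with at least 5 tested genes, whose number is in brackets. The dashed lines are the shares of all 8514 tested genes, 25.3% higher and 27.4% lower. The primed epiblast list, at the bottom, has 8 of 11 genes lower.

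Genes near whose start the study had listed a Prdm4-EGFP binding site were called in both directions. The list held 180 genes, of which 162 were on the array and 97 were tested. Of these 38 were higher and 22 lower (61.9% called, against 52.7% of all genes), with a median of 0.06. Over all genes 25.3% were higher and 27.4% lower. Without chromosomes 1 and 14, 30 of 88 were higher and 22 lower, with a median of 0.02. Of all genes off these chromosomes 22.5% were higher and 28.5% lower. The binding table used here may not be whole. Ctdsp2, a phosphatase of the RNA polymerase tail, was at 7.88, 7.78, 7.71 and 8.19 in null and at 9.69 to 10.15 (median 9.83) in Prdm4-EGFP, a difference of 1.97 (SE 0.11, adjusted p = 1.8e-08). Bahcc1, a chromatin protein with a BAH domain, was at 8.01, 8.01, 7.94 and 8.07 in null and at 9.01 to 9.24 (median 9.11) in Prdm4-EGFP, a difference of 1.12 (SE 0.07, adjusted p = 3.4e-08). Neurog3, a factor of endocrine progenitors, was at 6.05, 5.72, 6.24 and 6.48 in null and at 7.37 to 8.64 (median 8.26) in Prdm4-EGFP, a difference of 2.04 (SE 0.21, adjusted p = 4.3e-06). The groups were apart for Bahcc1. Klf5, Nodal and Pim2 are on the list too, the first higher and the others lower, and Ms4a10 fell by 1.59 (SE 0.10).

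The recognition sequence given by the study for Prdm4 has 3 parts. It was searched here as GGGNCTNGAAAC, GGGNNCTNGAAAC, GGGNNNCTNGAAAC or GGGNNNNCTNGAAAC, where N is any base, on both strands of the 300-base RefSeq promoter windows of build GRCm38.p6, which run from 250 bases before to 50 bases after a gene's start. These spellings overlap one another and all hold the core GAAAC. Of all 32851 windows 98 held a match (0.298%), and the core alone was found in 45.0%. Among the windows of tested genes on the list above 5 of 92 held a match (5.43%). The sequence was derived by the study from bound regions, so this share adds no separate evidence of binding. The study found the sequence in nearly all bound regions and counted sites as proximal over a far wider span than these windows. The share therefore does not give how many bound genes carry the sequence. Those 5 windows are shown because they join a listed binding site, the recognition sequence and a measured difference. Each is written in the direction of transcription, with the match in capitals (for Ctdsp2, Pim2 and Smurf1 the stretch that 2 overlapping matches cover), and a match on the other strand reads as its reverse complement.
Ctdsp2 (chr10:126978467-126978766, plus strand): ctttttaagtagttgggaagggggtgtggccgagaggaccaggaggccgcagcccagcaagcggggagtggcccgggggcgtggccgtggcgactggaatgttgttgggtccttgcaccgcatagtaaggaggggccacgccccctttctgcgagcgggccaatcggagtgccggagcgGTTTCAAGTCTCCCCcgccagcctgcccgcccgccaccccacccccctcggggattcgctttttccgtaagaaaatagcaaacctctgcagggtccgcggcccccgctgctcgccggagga
Ctdsp1 (chr1:74391359-74391658, plus strand): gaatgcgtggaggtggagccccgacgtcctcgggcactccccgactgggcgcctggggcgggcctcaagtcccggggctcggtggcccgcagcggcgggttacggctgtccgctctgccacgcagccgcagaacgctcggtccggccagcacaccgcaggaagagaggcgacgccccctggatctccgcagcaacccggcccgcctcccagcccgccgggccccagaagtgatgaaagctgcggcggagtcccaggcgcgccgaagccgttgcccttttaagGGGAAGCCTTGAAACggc
Pim2 (chrX:7878056-7878355, plus strand): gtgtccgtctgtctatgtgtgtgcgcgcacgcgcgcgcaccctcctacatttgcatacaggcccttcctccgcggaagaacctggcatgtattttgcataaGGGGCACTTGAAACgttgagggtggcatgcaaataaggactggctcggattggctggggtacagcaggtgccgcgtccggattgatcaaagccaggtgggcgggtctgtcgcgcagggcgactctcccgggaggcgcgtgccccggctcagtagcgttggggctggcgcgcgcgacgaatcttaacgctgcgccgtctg
Smurf1 (chr5:144965781-144966080, minus strand): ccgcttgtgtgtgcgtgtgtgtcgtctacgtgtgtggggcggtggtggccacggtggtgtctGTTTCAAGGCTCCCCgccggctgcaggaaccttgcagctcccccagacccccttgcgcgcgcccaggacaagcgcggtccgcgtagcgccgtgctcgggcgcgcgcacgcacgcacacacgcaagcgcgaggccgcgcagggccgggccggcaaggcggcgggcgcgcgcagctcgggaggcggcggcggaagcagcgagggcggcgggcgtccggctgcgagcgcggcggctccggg
Srsf5 (chr12:80945249-80945548, plus strand): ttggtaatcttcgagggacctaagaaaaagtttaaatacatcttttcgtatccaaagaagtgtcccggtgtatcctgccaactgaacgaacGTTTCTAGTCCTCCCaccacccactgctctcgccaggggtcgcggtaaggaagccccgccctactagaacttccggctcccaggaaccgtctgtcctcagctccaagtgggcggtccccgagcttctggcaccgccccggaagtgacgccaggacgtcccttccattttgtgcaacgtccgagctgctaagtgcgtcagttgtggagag

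These 5 genes did not move together. Ctdsp2 was higher as given above, with its match upstream of the start. Its paralog Ctdsp1, on chromosome 1, has its match downstream of the start and rose by 0.66 (SE 0.13, adjusted p = 0.00082), from 6.13 ± 0.28 (SD, n = 4) to 6.79 ± 0.20 (SD, n = 6). Pim2 was at 7.14, 6.51, 6.90 and 6.58 in null and below background on all Prdm4-EGFP arrays, with its match also upstream. The ubiquitin ligase gene Smurf1 differed by -0.07 (SE 0.12, adjusted p = 0.67) and the splicing factor gene Srsf5 by -0.23 (SE 0.10, adjusted p = 0.075), neither of them called. Over all 32 tested genes with a match in a window 12 were higher, 9 lower and 11 not called. Of all tested genes 25.3% were higher and 27.4% lower. The higher genes Cnst, Ctdsp1, Eef1b2, Nuf2 and Odr4 lie on chromosome 1, where 292 of 413 tested genes were higher. A match is a description of the letters in these windows, and no match says nothing of binding elsewhere.

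The largest differences lay in genes of varied function. They were ranked only among called genes whose groups did not overlap. The lack of overlap was thus set by that choice, for Mras, Fgfr2, Dusp4, Neurog3 and Ctdsp2 above too. Nkx6-3, a homeobox gene of the gut, was detected on no null array and stood at 8.08 to 8.80 (median 8.57) in Prdm4-EGFP, at least 7.71-fold higher (adjusted p = 3.5e-09). Hebp1, a heme-binding protein, was at 5.87, 5.35, 6.21 and 6.20 in null, with 3 of 4 arrays detected, and at 8.99 to 9.55 (median 9.15) in Prdm4-EGFP, a difference of 3.29 (SE 0.16). Arhgdib was at 6.02, 6.18, 6.28 and 6.63 in null and at 9.18 to 9.55 (median 9.47) in Prdm4-EGFP, a difference of 3.14 (SE 0.11). Null array 4 was the highest null array for Nkx6-3 and Arhgdib.

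Myl4, a myosin light chain of the embryonic heart, rose by 2.96 (SE 0.12) and Tgfbi, whose matrix protein responds to TGF-beta, by 2.87 (SE 0.11). The imprinted hydrolase gene Mest was higher by 2.38 (SE 0.17, with 3 of 4 null arrays detected), and Smarcd3, a subunit of a chromatin remodelling complex, which was detected on no null array, was at least 2.90-fold higher. The rest of the 15 largest were Mras, Neurog3 and Ctdsp2, described above, and Gpatch4, Emp1, Igsf3, Cmas and Tgm2, which rose by 2.00 to 2.17, Tgm2 with 1 of 4 null arrays detected. The other probe of Igsf3 rose by 0.78. Hebp1, Arhgdib, Mest, Emp1 and Cmas all lie on chromosome 6. Hebp1, Emp1, Arhgdib and Cmas lie in the same part of it, with starts from base 135137519 to 142756686. Mest lies far from them, at 30733506. Whether these genes share a shift was not tested.

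Slc40a1, the iron exporter ferroportin, showed the deepest fall in fitted level. It was at 9.59, 9.72, 9.59 and 9.50 in null and at 4.76 to 5.84 (median 5.23) in Prdm4-EGFP, where 2 of 6 arrays were detected, a difference of -4.31 (SE 0.18, adjusted p = 2.0e-09). It lies on chromosome 1, against the direction of most genes there. Xlr4a, an X-linked gene of a family with near-identical relatives, was at 10.15, 10.18, 10.22 and 10.55 in null and at 5.65 to 7.14 (median 6.13) in Prdm4-EGFP, a difference of -4.07 (SE 0.22, adjusted p = 2.1e-08). Esrp1, a splicing regulator of epithelial cells, fell by 2.67 (SE 0.15), from 10.91 ± 0.10 (SD, n = 4) to 8.24 ± 0.35 (SD, n = 6).

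A set of genes was detected on all 4 null arrays and on no Prdm4-EGFP array. The detection filter let in a probe detected on no Prdm4-EGFP array only where all 4 null arrays detected it. Efhc2, an EF-hand protein of the X chromosome, was at least 6.56-fold lower, Ube2cbp at least 4.83-fold lower, the ubiquitin ligase gene Trim36 at least 4.18-fold lower, the smooth muscle actin gene Acta2 at least 3.16-fold lower and the ferritin-like gene Fthl17f at least 2.90-fold lower. The other tested probe of Acta2 was lower by much less (-0.36). In all, 112 genes that were called lower were below background on every Prdm4-EGFP array, and 122 that were called higher were below background on every null array. The filter asked for all 4 null arrays in the first case but only 4 of 6 Prdm4-EGFP arrays in the second. These counts are therefore not to be set against each other. The stress gene Gadd45g fell by 2.55 (SE 0.19), the Polycomb-related gene Sfmbt2 fell by 2.42 (SE 0.20) and Gm428 fell by 2.43 (SE 0.28). Sfmbt2 was detected on 2 of 6 and Gm428 on 3 of 6 Prdm4-EGFP arrays, so their fitted falls rest partly on signals below background. The other members of the 15 largest falls were Fgfr2 and Dusp4, described above, and Rhox9 and Zscan4c, which follow.

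Genes of p53 and apoptosis were lower as a rule. Of 31 listed genes 24 were tested, of which 17 were lower and 4 higher (median -0.47, or -0.38 with 2 genes at their bound). Ccng1, a cyclin that p53 induces, was at 11.45, 11.63, 11.46 and 11.46 in null and at 10.65 to 10.74 (median 10.69) in Prdm4-EGFP, a difference of -0.80 (SE 0.06, adjusted p = 2.4e-07). Mdm2, a p53 target and the ligase that degrades p53, was at 11.19, 11.43, 11.33 and 11.09 in null and at 10.24 to 10.49 (median 10.35) in Prdm4-EGFP, a difference of -0.90 (SE 0.08, adjusted p = 8.9e-07). The groups did not overlap for either. The death-promoting genes Bbc3 (-0.86, SE 0.07, and -0.16 on its other probe) and Bcl2l11 (-0.87, SE 0.08) and the kinase gene Plk2 (-1.36, SE 0.12) fell as well. Against the rule Casp8, on chromosome 1 and detected on no null array, was at least 1.44-fold higher, and Pmaip1, which encodes the death-promoting protein Noxa, rose by 0.59 (SE 0.09).

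Stress genes of the Atf4 and ER lists split, with 7 higher and 6 lower of 22 tested (median 0.04). Atf4 rose by 0.64 (SE 0.11) and its targets Phgdh, the first enzyme of serine synthesis, by 1.12 (SE 0.08) and Chac1 by 0.84 (SE 0.12). Gadd45a fell by 1.09 (SE 0.09) and Cebpb by 0.69 (SE 0.09). Cell cycle genes were higher 8 times and lower 4 times among 23 tested. E2f2 rose by 1.20 (SE 0.07), Ccnd3 by 0.90 (SE 0.06), the inhibitor gene Cdkn1c by 0.90 (SE 0.16) and Ccne1, the cyclin E gene, by 0.38 (SE 0.08, adjusted p = 0.0014). Ccne1 stood at 10.32, 10.24, 10.40 and 10.25 in null and at 10.54 to 10.86 (median 10.66) in Prdm4-EGFP, without overlap.

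Most tested trophoblast genes and simple keratins were lower. Of 19 listed genes 11 were tested, of which 7 were lower and 2 higher (median -0.60), and 7 others, Cdx2 and Eomes among them, were detected on no array. The summed signal of the list was 3108 to 3672 in null and 1419 to 2085 in Prdm4-EGFP. Tfap2c, an AP-2 factor of trophoblast and germ line, fell by 1.50 (SE 0.15) and Krt8 by 0.77 (SE 0.12). Rhox6 fell by 1.70 (SE 0.20) and Krt18 by 1.03 (SE 0.13), each with 1 of 6 Prdm4-EGFP arrays detected, so the fitted values lie mostly below background. Rhox9 was at 8.29, 8.25, 8.08 and 7.91 in null and at 4.95 to 6.99 (median 5.47) in Prdm4-EGFP, with 3 of 6 arrays detected and array 3 highest, a difference of -2.49 (SE 0.31). Rhox genes are close relatives, so their probes may share transcripts. The higher calls depended on single arrays: 1 gene rather than 2 was higher when null array 1, 2 or 3 or Prdm4-EGFP array 1, 3, 4 or 5 was left out.

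Some primitive endoderm genes varied among the Prdm4-EGFP arrays themselves. Of 11 tested genes 6 were lower and 2 higher (median -0.49). Lrp2, an endocytic receptor, fell by 1.36 (SE 0.10) and the matrix gene Sparc by 0.35 (SE 0.07), and the laminin genes Lamc1, on chromosome 1, and Lama1 rose by 0.93 (SE 0.06) and 0.30 (SE 0.08). These 4 genes varied little among the Prdm4-EGFP arrays (SD 0.09 for Lamc1, 0.11 for Sparc, 0.14 for Lama1 and 0.19 for Lrp2). Gata6, a determinant of this lineage, was at 6.67, 6.57, 6.38 and 6.38 in null and at 4.99 to 7.05 (median 6.24) in Prdm4-EGFP, where 4 of 6 arrays were detected, a difference of -0.49 (SE 0.32, adjusted p = 0.23). Dab2, the adaptor of Lrp2, was at 8.30, 8.15, 7.95 and 8.16 in null and at 5.73 to 8.13 (median 7.05) in Prdm4-EGFP, a difference of -1.17 (SE 0.35, adjusted p = 0.014). Its groups overlapped, and it was not called without a filter, with a trended and robust eBayes or when arrays numbered 1 or 2 and those numbered 3 or higher were fitted apart. Foxq1, singled out after its values were seen, was at 6.74, 6.75, 6.57 and 7.15 in null and at 4.75 to 6.94 (median 5.99) in Prdm4-EGFP, with 4 of 6 arrays detected. Prdm4-EGFP array 1 was highest and arrays 2 and 3 were the lowest for Gata6, Dab2 and Foxq1. Gata4 and Sox17, the other defining factors, were detected on no array.

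Prdm4-EGFP arrays 2 and 3 stood apart in the opposite way for the Lefty genes. Lefty1 was at 10.32 and 10.92 on these arrays and at 9.60 to 9.91 on the other 4, and Lefty2 was at 10.06 and 10.62 against 9.05 to 9.30. Lefty2 on array 3 reached into the null range of 10.58 to 10.76. Zscan4c and Tcstv3 mark a 2-cell-like state that ESCs enter at times, and they followed neither order. Zscan4c was at 9.55, 9.68, 9.94 and 9.77 in null and at 6.18 to 8.97 (median 7.32) in Prdm4-EGFP, a difference of -2.36 (SE 0.45, adjusted p = 0.00074). Tcstv3 was at 6.90, 7.00, 7.06 and 7.18 in null and at 4.73 to 6.06 (median 5.09) in Prdm4-EGFP, with 1 of 6 arrays detected, a difference of -1.83 (SE 0.21). Array 6 was highest for both, and no Prdm4-EGFP array reached the null range. Zscan4c is 1 of several near-identical copies, of which its probe may read more than 1. Without Prdm4-EGFP arrays 2 and 3, 7487 probes were called, of which 6972 were called in the same direction with all arrays.

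**Figure D4:**
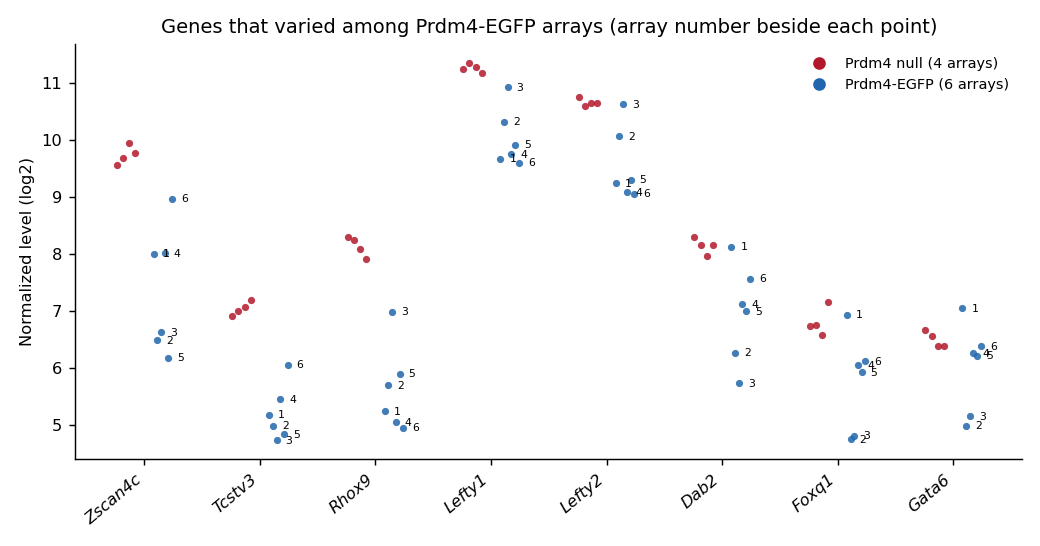
Normalized level (log2, vertical axis) of 8 genes that varied among the Prdm4-EGFP arrays, with 4 Prdm4 null arrays in red and 6 Prdm4-EGFP arrays in blue, each with its array number. Array 6 is highest for Zscan4c and Tcstv3, array 3 for Rhox9, Lefty1 and Lefty2, and array 1 for Dab2, Foxq1 and Gata6.

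Few genes of the other germ layers were expressed. Of 19 mesoderm genes 3 were tested: Myl4 rose, Evx1 fell by 0.41 (SE 0.11) and Kdr was not called (-0.10, SE 0.10). Of 23 neural genes 7 were tested. Neurog3, Ncam1 (0.76, SE 0.12, with 1 of 4 null arrays detected), Ngfr (0.52, SE 0.09) and Sox11, with its brighter probe, were higher. The filament gene Nes, detected on no Prdm4-EGFP array, was at least 1.13-fold lower and Stmn2 fell by 0.46 (SE 0.17, adjusted p = 0.039). Sox1, Pax6 and Tubb3 were detected on no array. Ngfr encodes the p75 neurotrophin receptor, to which Prdm4 was first linked. Of 12 tested germline genes 5 were lower and 1 higher. Taf7l, which stands in for a TFIID subunit in germ cells, fell by 1.97 (SE 0.15) but was above background on 1 of the 6 Prdm4-EGFP arrays, and Tdrd12, a piRNA factor, fell by 1.57 (SE 0.11). Ldhc, a testis-type enzyme of lactate metabolism detected on no Prdm4-EGFP array, was lower by at least 2.14-fold. Stag3, a meiotic cohesin gene, rose by 0.98 (SE 0.09).

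Genes of the actin cytoskeleton, several of them targets of TGF-beta, were mostly lower, with 10 lower and 3 higher of 16 tested (median -0.47). Beside Acta2, tropomyosin Tpm1 fell by 1.28 (SE 0.07) and the matricellular gene Ccn2 by 1.46 (SE 0.09), and Myl9 was at least 2.30-fold lower. Arhgdib, Tgfbi and, on chromosome 1, Tagln2 (1.01, SE 0.08) were the 3 that rose. Of 11 tested genes of epithelial junctions 6 were lower and 2 higher (median -0.38). Grhl2, a factor of epithelial identity, fell by 1.07 (SE 0.14) and the plakophilin gene Pkp2 by 0.48 (SE 0.06) along with Cldn6, Esrp1 and Cdh1, whereas the keratin gene Krt17 rose by 1.38 (SE 0.20). Of 9 mesenchymal genes 4 were higher and 2 lower. Tcf4 rose by 0.67 (SE 0.06), Zeb1 by 0.33 (SE 0.08) and the vimentin gene Vim by 0.42 (SE 0.13, adjusted p = 0.014), which was not called when null array 2 was left out (0.35), while Twist1 fell by 0.65 (SE 0.14).

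Of 15 members of the Prdm family 5 were tested. Prdm4 and Prdm14 were higher as given above, and Prdm2, Mecom and Prdm15 were not called (-0.03, SE 0.05, -0.02, SE 0.11, and 0.01, SE 0.09). Of 13 tested genes for cofactors of PRDM proteins 2 were higher and 3 lower (38.5% called). The arginine methyltransferase gene Prmt1 fell by 0.44 (SE 0.07), the corepressor gene Ctbp2 by 0.31 (SE 0.07) and Prmt5, a known partner of Prdm4, by 0.25 (SE 0.07). The other probes of Prmt5 were not called. The deacetylase gene Hdac3 rose by 0.33 (SE 0.07) and Rcor1 by 0.32 (SE 0.09, adjusted p = 0.013), which was not called when null array 3 was left out.

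Of 12 tested genes of DNA methylation 5 were higher and 5 lower. Tet1, which oxidizes methylcytosine, fell by 0.69 (SE 0.09) along with Dnmt3b and its cofactor gene Dnmt3l (-0.52, SE 0.08), whereas the methyl-binding gene Mbd2 rose by 0.95 (SE 0.09), the glycosylase gene Smug1 by 0.62 (SE 0.06) and Mbd4 by 0.45 (SE 0.06). Dnmt1, the maintenance enzyme, was not called (-0.04, SE 0.08). Polycomb genes were called evenly, 7 higher and 7 lower of 25 tested (median -0.01). Phf19 fell by 1.09 (SE 0.10), Phc1 by 0.63 (SE 0.08) and Aebp2 by 0.44 (SE 0.07), Bmi1, detected on no Prdm4-EGFP array, was at least 1.48-fold lower, and Ring1 rose by 0.48 (SE 0.08).

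Imprinted genes included large differences both ways, with 5 higher and 9 lower of 20 tested (median -0.11). Beside Mest, Ppp1r9a rose by 1.08 (SE 0.08). The growth factor gene Igf2 was at 9.06, 9.35, 9.14 and 8.94 in null and at 7.24 to 7.93 (median 7.58) in Prdm4-EGFP, a difference of -1.57 (SE 0.12, adjusted p = 4.0e-07), and the groups did not overlap. Peg3 fell by 1.23 (SE 0.10) and Grb10 by 1.14 (SE 0.10). Of these, Mest, Igf2 and Peg3 are expressed from the paternal allele, and Igf2 and Cdkn1c lie in the same imprinted cluster of chromosome 7 but differed in opposite directions.

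Among metabolic genes, those of glycolysis and hypoxia were more often higher, with 11 higher and 2 lower of 21 tested (median 0.24). Aldoc rose by 1.11 (SE 0.08), Eno3 by 0.89 (SE 0.13), the growth factor gene Vegfa by 1.02 (SE 0.18) and the glucose transporter gene Slc2a1 by 0.32 (SE 0.06), while Pkm fell by 0.29 (SE 0.06) and Gapdh was not called (0.00, SE 0.05). In the deposited normalized values, which differ in background correction and scaling, 17 were higher and 0 lower. Of 21 tested genes of iron and heme 6 were higher and 4 lower. Beside Slc40a1 and Hebp1, Ppox, an enzyme of heme synthesis on chromosome 1, rose by 0.77 (SE 0.09), Blvra, which reduces biliverdin, by 0.61 (SE 0.08) and the mitochondrial iron importer gene Slc25a37, on chromosome 14, by 0.50 (SE 0.07), whereas the transferrin receptor gene Tfrc was not called (0.17, SE 0.08, adjusted p = 0.10).

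Of 17 tested cholesterol synthesis genes 5 were higher and 2 lower (41.2% called, against 52.7% of all genes), Pmvk rising by 1.06 (SE 0.08) and Sqle falling by 0.43 (SE 0.10). Of 17 tested metallothionein and antioxidant genes 6 were higher and 5 lower. Mt3, detected on no null array, was at least 2.54-fold higher, and Gsto1, Gpx4 and Gclm fell by 0.40 to 0.50. Of 13 tested interferon and MHC class I genes 5 were lower and 2 higher, with Ifitm1 falling by 0.88 (SE 0.09) and Irf1 by 0.58 (SE 0.10), and H2-D1 rising by 0.41 (SE 0.09).

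Genes of chromosome 1 were higher as a body. Of its 413 tested genes 292 were higher and 33 lower, and their median difference lay 0.44 above that of all other genes, with 0.40 to 0.47 for each null array alone. The other chromosomes lay between -0.06 and 0.06. Without chromosomes 1 and 14, 3983 of 7806 genes were called (51.0%), 1760 higher (22.5%) and 2223 lower (28.5%). Chromosome 14 as a whole lay 0.04 above the rest, but held neighbouring genes that differed together. In the gene order of GRCm38.p6 the 33 tested genes from Itm2b to Klf5 included 32 that were higher and 0 lower, with a median difference of 1.08 (quartiles 0.90 and 1.27). The value for Klf5 (0.90) lay at the lower quartile of its own neighbourhood. Farther along the 14 tested genes from Slitrk5 to Pcca included 13 that were lower and 0 higher, with a median of -1.04. These stretches were chosen with their shift known. Around the relaxin-family hormone gene Insl3 on chromosome 8, which rose by 1.63 (SE 0.09), its neighbour Jak3 rose by 1.00 (SE 0.16), and B3gnt3 and Unc13a, detected on no null array, were at least 1.40-fold and 1.20-fold higher. Genes a little farther off were called in both directions, such as Plvap (0.48) and Slc27a1 (-0.35). The cause of the shared shifts was not tested.

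**Figure D5:**
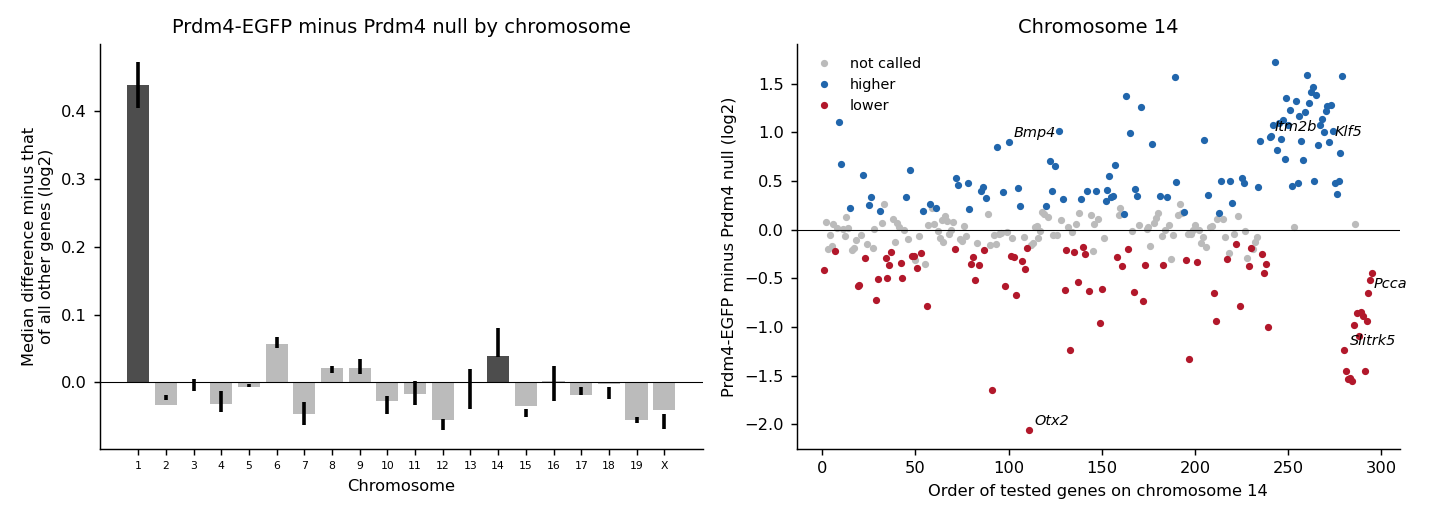
Left, median difference between Prdm4-EGFP and Prdm4 null of each chromosome minus that of all other genes (log2, vertical axis), with black lines for the lowest and highest value when each null array is used alone. Right, difference (log2, vertical axis) of each tested gene of chromosome 14 in gene order (horizontal axis), in blue where higher, red where lower and gray where not called. Chromosome 1 stands out at 0.44, and the genes from Itm2b to Klf5 lie above 0.

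No slide or scan date is given, and the comparison was repeated separately among arrays numbered 1 or 2 and among those numbered 3 or higher. Each held 2 null arrays, against 2 and 4 Prdm4-EGFP arrays. Klf5 differed by 0.94 and 0.88, Nanog by 0.83 and 0.63, Otx2 by -1.59 and -2.28, Bahcc1 by 1.11 and 1.12 and Slc40a1 by -4.13 and -4.37 in the lower and the higher numbers. The groups did not overlap for these genes over all arrays, so the shared direction was fixed in advance. Only the sizes could differ, and an effect of array number was not tested by them. Of the 60 genes named by the rule given below that had more than 1 tested probe, 55 had the same call on all their probes.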

How the data were processed

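Total RNA of each array was hybridised by the authors to Illumina Mouse WG-6 v2 BeadChips, and LIF was present in the cultures. The authors deposited scanner-level intensity per probe, not normalized, with a detection p-value per probe and array, and a second table of intensity values after rank-invariant normalization. The tool behind the deposited tables is not given in the sources used here. The 6 wild-type arrays were not used here.

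The deposited intensity of the 10 arrays was corrected for background, quantile normalized and transformed to log2 with neqc of limma 3.58.1 (R 4.3.3), with an offset of 16 and the background estimated from the detection p-values. Probes detected on at least 4 arrays were fitted with lmFit and eBayes without covariates, two-sided, and p-values were adjusted over all 14912 probes. The script was tested on simulated data first. The error model that the study used was not run. Differences are Prdm4-EGFP minus null on the log2 scale, and SDs are over the 4 null or 6 Prdm4-EGFP arrays. The number of arrays limits the precision. Gene names came from the platform annotation (34885 probes with 1 symbol, 18 with several, 10378 not named) updated through RefSeq tables of GRCm38.p6. Where no array of a group detected a gene, its difference is given as a bound. The fitted differences of the dimmer Prdm4 probe under leaving out arrays are an exception and rest on null signals below background.

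The members and lists were chosen with earlier results of these data known. Named genes were those the study names, the 15 largest differences in each direction among called genes whose groups did not overlap, up to 5 members with the smallest p-value in each list, and every member of a list with 5 or fewer calls. Other genes, such as Foxq1, Egr1, Casp8, the Lefty genes, the promoter genes and genes given as not called, were chosen after their values were seen. Lists were described by counts and medians, with no set test.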

Additional observations from a re-analysis of the deposited data

Results flagged for a closer look

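Over the named genes and both groups, 20 of 328 sets of arrays held 1 array whose gap to its nearest neighbour was large for the range of its group, by Dixon's critical value, where chance flags about 1 in 20. Among the null arrays, array 4 stood apart for Nkx6-3 (5.44, below background as on the other 3 arrays), Xlr4a (10.55), Acta2 (7.00), Ptch1 (8.47), Phgdh (8.71) and Slc2a1 (11.92). Null array 2 stood apart for Fbxo15 (11.86), Ccng1 (11.63) and Sod2 (12.27), null array 3 for Bmpr2 (7.56) and null array 1 for Gpx4 (13.36).

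Among the Prdm4-EGFP arrays, array 2 stood apart for Klf4 (9.17), Plk2 (7.30), Tet1 (11.33) and Aebp2 (9.79). Array 3 stood apart for the brighter Prdm4 probe (10.11, against 10.28 to 10.38 on the other 5 arrays), Gadd45g (6.20, against 7.11 to 7.44) and H2-D1 (8.91). Array 1 stood apart for Dusp4 (7.15, against 6.62 to 6.78) and Ppox (7.63). In each case but Nkx6-3 the probe was detected on that array. None of these 20 values reached the range of the other group.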

How the results depend on the processing

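No gene named by the rule above reversed under the alternative settings that refitted its brightest probe. Genes chosen after their values were seen were not covered. The other probe of Sox11 was called in the opposite direction, as given above. Where detection on all 10 arrays was required, the dimmer Prdm4 probe and other genes below background in a group could not be fitted. At an adjusted p under 0.001, 3418 probes (1795 higher, 1623 lower) and 2117 genes (1080 higher, 1037 lower) were called. Within array numbers 1 and 2, 3886 probes (1980 higher, 1906 lower) and 2365 genes (1193 higher, 1172 lower) were called, and within numbers 3 and above 4948 probes (2412 lower) and 2982 genes (1494 lower), with fewer arrays in each fit. Leaving out 1 array gave 6586 to 7512 probes (3265 to 3680 higher, 3321 to 3832 lower) and 3972 to 4486 genes (1930 to 2159 higher, 2042 to 2327 lower), and differences of 2.52 to 2.60 and 0.55 to 0.62 for the dimmer and the brighter Prdm4 probe. With the array number as a replicate block 6733 probes passed, and 6416 probes were called in the same direction with and without it. Deviations of same-numbered arrays correlated at 0.0238 to 0.248 (3 of 4 pairs above 0.1), against a mean of -0.0306 over 20 pairs of different number, and the labels do not say that numbers pair the arrays. In the deposited normalized values the median of all probes was 0.05, against -0.01. Of the named genes 133 kept their side of the 0.05 threshold under all refits of the brightest probe. Over 3389 pairs of a gene and a setting 71 lost and 4 gained a call, and the cause was not tested. Utf1 lost its call most often. The arrays carry no counts, so depth is set by signal over background: 2011 tested probes were not named, and genes below background on a whole group have only a bound.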
